A study of Mus musculus with 14 samples.

Results

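The MAP kinase phosphatases are dual-specificity phosphatases that switch off MAP kinases, and the 10 genes of the family described here (Dusp1, Dusp2, Dusp4, Dusp5, Dusp6, Dusp7, Dusp8, Dusp9, Dusp10 and Dusp16) were found by symbol among the 24421 genes of the counts table. Hippocampal RNA was sequenced from 7 naive male mice labelled LPAR2-/- and 7 naive male WT mice, all without treatment and with the strain given as 129.C57Bl6. LPAR2 is a receptor for the lipid mediator lysophosphatidic acid, and the comparison asks how hippocampal gene expression differs between mice with and without it. The age label reads 10 to 12 weeks, whereas the series describes its mice as middle aged to aged, so the age is uncertain. The study's methods state that the receptor allele lacks part of its second exon and that the LPAR2-/- mice were bred as homozygotes beside a separate control colony of mixed C57BL/6 and 129/SvJ background. Genotype and colony therefore cannot be told apart. The study's text places the tissue in the dentate gyrus in one passage and in the hippocampus in another.

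MAP kinases pass signals from surface receptors and synapses to transcription factors and other targets, and they are active only while a threonine and a tyrosine in their activation loop are both phosphorylated. MAP kinase phosphatases remove both phosphates. By textbook grouping, Dusp1, Dusp2, Dusp4 and Dusp5 encode inducible nuclear enzymes, Dusp6, Dusp7 and Dusp9 encode cytoplasmic enzymes that prefer ERK, and Dusp8, Dusp10 and Dusp16 encode enzymes that prefer the stress kinases JNK and p38. In neurons several of the nuclear enzymes are immediate early genes, which are transcribed within minutes of synaptic activity.

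The libraries held 15434620 to 23258949 counts assigned to genes. The targeted gene went against its label: Lpar2 had 27 to 66 counts in the WT libraries and 144 to 234 in the libraries labelled LPAR2-/- (log2 fold change 2.01, SE 0.157, adjusted p = 8.2e-07 by edgeR). The counts are summed over the gene and do not part transcripts that lack the deleted sequence, so every direction below refers to the labels. Of 91 marker genes of 15 cell types, 83 were tested, 1 was called lower (Gpr17) and 2 were called higher (Tdo2 and Lum) in the libraries labelled LPAR2-/-, and no list's summed level separated the genotypes. Of the 6 pericyte and smooth muscle markers 5 had a positive log2 fold change (median 0.66, summed levels 117.4 to 299.5 CPM in WT and 162.6 to 352.7 CPM in the libraries labelled LPAR2-/-, 0 called), and of the 6 meningeal fibroblast markers likewise 5 (median 0.61, 53.8 to 161.6 and 61.4 to 222.9 CPM, Lum called). All 5 CA3 pyramidal neuron markers had a negative one (median -0.08, 1656 to 2003 CPM in WT and 1481 to 1768 CPM in the libraries labelled LPAR2-/-, 0 called). Most of that sum was Nptx1, with means of 1480.5 CPM in WT and 1306.2 CPM in the libraries labelled LPAR2-/-. A positive log2 fold change was found for 6 of 6 microglia, 6 of 7 striatal neuron, 5 of 6 oligodendrocyte and 4 of 4 tested choroid plexus markers (0 called in each list). The part of these markers in the values of the phosphatases was not tested. The library of LPAR2-/- mouse 3 stood apart in oligodendrocyte markers (3878 CPM summed over 6 genes, against 969 to 1944 in the other libraries with its label and 1201 to 2029 in WT), and that of LPAR2-/- mouse 2 in choroid plexus markers (293.7 CPM, against at most 53.8 in the others with its label and 30.5 to 35.99 in WT). That of WT mouse 2 stood apart in the sum of the CA1 pyramidal neuron markers (416 CPM over 5 genes, against 173 to 208 in the other WT mice and 144 to 244 in the libraries labelled LPAR2-/-). Of these genes, Fibcd1 and Mpped1 reached 154 and 126 CPM in WT, against at most 46.3 and 53.2 CPM in the libraries labelled LPAR2-/-. The highest values in WT and in the libraries labelled LPAR2-/- were 47.4 and 65.5 CPM for Wfs1, 12.1 and 19.7 CPM for Man1a, and 81.2 and 76.7 CPM for Pex5l. Of the 5 blood markers, 4 had no counts in any library.

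All 10 phosphatases passed the filter on low counts. The inducible nuclear enzymes Dusp5 and Dusp1 were lower in the libraries labelled LPAR2-/-, and no member was called higher. The call of Dusp5 held under each alternative that tested it and that of Dusp1 did not. A gene was called where the adjusted p of edgeR's quasi-likelihood test, corrected over all 14897 genes tested, was below 0.05. By that rule 6.77% of all genes tested were called, 3.46% lower and 3.32% higher. Of the members, 7 had a negative and 3 a positive log2 fold change, beside 48.9% of all genes tested with a negative one, and their median was -0.16, beside 0.0029 over all genes tested. The split was 6 and 4 with upper quartile scaling and in 7 of the 14 fits that left out a mouse (Dusp7, near 0, changed sign), and 8 and 2 without WT mouse 5 (Dusp2 changed sign). Without correction, 4 members had p below 0.05 (Dusp1, Dusp4, Dusp5 and Dusp6, all lower), beside 22.4% of all genes. Among the nuclear enzymes 2 of 4 were called, and none of the 3 cytoplasmic or the 3 JNK and p38 enzymes was.

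**Figure D1:**
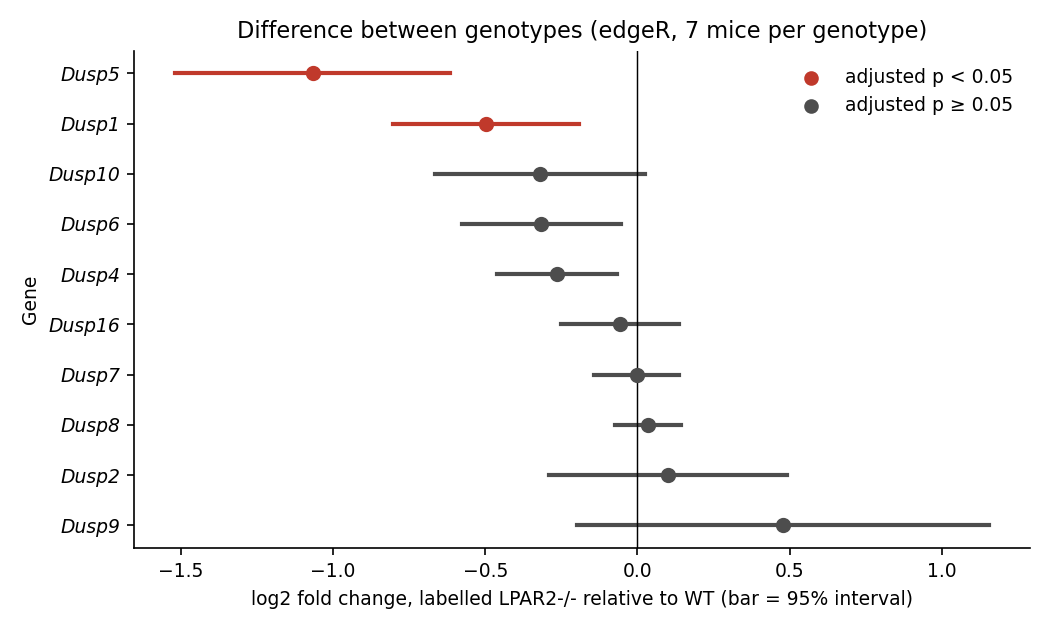
The log2 fold change of each of the 10 phosphatases in libraries labelled LPAR2-/- relative to WT (x axis), with its 95% interval as a bar, ordered from the most negative at the top. Dusp5 (-1.07) and Dusp1 (-0.50) are the members with an adjusted p below 0.05, and the intervals of Dusp6 and Dusp4 also lie below 0 although their adjusted p was above 0.05.

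Dusp5, at chr19:53529318-53541322 on the forward strand of mm10, encodes a nuclear phosphatase that acts on ERK and holds it in the nucleus. Levels are given as CPM, counts per 1000000 counts of a library whose total was scaled by the trimmed mean method. In WT mice 1 to 7 Dusp5 stood at 2.60, 3.00, 2.03, 3.15, 2.00, 2.05 and 3.21 CPM. In the libraries labelled LPAR2-/- 1 to 7 it stood at 0.872, 1.02, 1.56, 1.72, 1.68, 1.02 and 0.576 CPM. Every library labelled LPAR2-/- lay below every WT library, which held, in the lower direction, for 0.906% of all genes tested. The means were 2.58 ± 0.550 CPM in WT and 1.21 ± 0.447 CPM in the libraries labelled LPAR2-/- (SD, n = 7 each), 47.7% of the WT level with a 95% interval of 34.9% to 65.3%. The log2 fold change was -1.07 (SE 0.214, 95% interval -1.52 to -0.62, adjusted p = 0.0080 by edgeR). In these bulk samples fewer cells of a type and less RNA per cell cannot be told apart. The exact two-sided permutation test over all 3432 arrangements of the 14 mice gave p = 0.000583 (1 of 10 such tests, unadjusted), the smallest that this design allows.

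These Dusp5 levels rest on few reads, 33 to 66 counts per WT library and 9 to 40 per library labelled LPAR2-/-. The counted gene model spans 1155 bases, of which 99.7% are coding in GENCODE, and the GENCODE gene runs 1109 bases beyond its 3′ end. Reads from those bases were not counted, while the counted models of the other 9 members were 38.7% to 59% coding. Dusp5 was called with each mouse left out in turn (14 of 14 fits, log2 fold change -1.17 to -0.96, adjusted p 0.0072 to 0.0213).

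Dusp1, at chr17:26505591-26508472 on the reverse strand, encodes the nuclear phosphatase that is induced by growth factors, stress and neuronal activity and acts on p38, JNK and ERK. In WT mice 1 to 7 it stood at 11.01, 14.3, 9.09, 16.3, 15.6, 12.9 and 9.80 CPM, and in the libraries labelled LPAR2-/- at 7.13, 8.25, 10.3, 9.82, 11.6, 7.17 and 8.77 CPM. The ranges overlapped, although all 7 libraries labelled LPAR2-/- lay below the WT median and 4 lay below the lowest WT mouse. The means were 12.7 ± 2.84 CPM in WT and 8.996 ± 1.65 CPM in the libraries labelled LPAR2-/- (SD, n = 7 each), 70.8% of the WT level (95% interval 57.3% to 87.5%).

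The log2 fold change of Dusp1 was -0.50 (SE 0.144, 95% interval -0.80 to -0.19). Its adjusted p by edgeR was 0.0492, close to the threshold, and the exact two-sided permutation test gave p = 0.0146 (unadjusted, n = 7 each). The call was lost with upper quartile scaling (adjusted p = 0.0579), without a filter (0.0587) and with limma-trend (0.0546). It held in 5 of the 14 fits that left out a mouse. It was lost without LPAR2-/- mouse 1, 2, 4, 6 or 7 or without WT mouse 2 (the library with the highest sum of CA1 markers), 4, 5 or 6, with adjusted p between 0.0684 and 0.107. The log2 fold change stayed between -0.57 and -0.43 over all 14 fits.

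**Figure D2:**
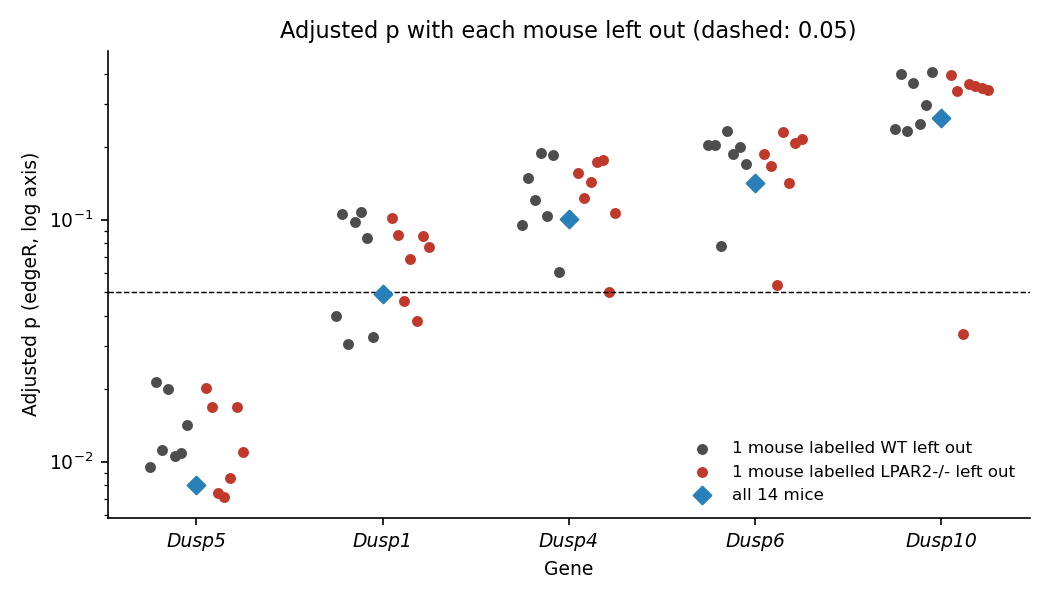
Adjusted p by edgeR (y axis, log scale) for the 5 phosphatases with the most negative fold changes, with all 14 mice (diamond) and with 1 WT mouse (dark points) or 1 mouse labelled LPAR2-/- (red points) left out. All points of Dusp5 lie below the dashed line at 0.05, those of Dusp1 lie on both sides of it, and 1 point of Dusp10, without LPAR2-/- mouse 3, lies below it at 0.0335.

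The stretches before the RefSeq starts of Dusp5, Dusp1 and Dusp8 are shown because they hold the elements that immediate early promoters are known for, and because Dusp8 holds such elements while its level gave no call. They are taken from RefSeq windows on GRCm38.p6, 5′ to 3′ on the strand of the gene, and 8 of the 10 members had such a window (all but Dusp4 and Dusp9). Each starts 250 bases before the RefSeq start, and bases that GENCODE places in an exon of the same gene are left out (36 for Dusp5, 47 for Dusp1, 0 for Dusp8). The GENCODE genes of Dusp1 and Dusp8 also have starts farther upstream, so that these 2 windows lie inside the outer bounds of the gene there. Capitals mark a CArG box (bound by serum response factor), the full cAMP response element TGACGTCA or its short form TGACG, on either strand.
Dusp5, chr19:53528895-53529108, forward strand: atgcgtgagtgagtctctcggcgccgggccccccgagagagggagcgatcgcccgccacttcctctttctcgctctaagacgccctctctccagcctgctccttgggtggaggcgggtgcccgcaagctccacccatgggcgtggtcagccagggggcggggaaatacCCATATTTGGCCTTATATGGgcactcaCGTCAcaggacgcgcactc
Dusp1, chr17:26508520-26508722, reverse strand: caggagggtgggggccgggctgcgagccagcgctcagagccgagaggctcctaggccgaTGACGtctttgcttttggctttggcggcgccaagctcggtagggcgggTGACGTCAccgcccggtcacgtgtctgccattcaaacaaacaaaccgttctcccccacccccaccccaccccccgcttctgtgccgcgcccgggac
Dusp8, chr7:142095285-142095534, reverse strand: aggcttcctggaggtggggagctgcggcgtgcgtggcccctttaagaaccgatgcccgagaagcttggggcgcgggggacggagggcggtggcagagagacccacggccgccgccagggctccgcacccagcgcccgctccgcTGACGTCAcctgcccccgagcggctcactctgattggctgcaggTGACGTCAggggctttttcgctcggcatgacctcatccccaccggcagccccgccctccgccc

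In the Dusp5 window 2 CArG boxes lay side by side, at positions -82 to -73 and -72 to -63 from the RefSeq start, followed by a short form at -55 to -51. A CArG box was found in 1.47% of all 32851 windows of the same length and, among the 8 members searched, in Dusp5 alone. The Dusp1 window held a full cAMP response element at -143 to -136 and a separate short form at -191 to -187. The Dusp8 window held 2 full elements, at -107 to -100 and -63 to -56. A full element was found in 1.55% of all windows and the short form, which every full element contains, in 17.8%. Of the members, Dusp1 and Dusp8 held the full element, and Dusp1, Dusp5, Dusp8 and Dusp16 held the short form. The Egr element GCGNGGGCG was found in Dusp2 and Dusp16 (4.7% of all windows). None of the 8 members held the AP-1 element TGANTCA (6.75% of all windows) or TATAAA (12.4%) in this window. These are matches of letters and not measured binding.

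Dusp4, at chr8:34807610-34819894, encodes a nuclear phosphatase of ERK and JNK and lies on the chromosome of Lpar2, 35.003 Mb away from it. In WT mice it ranged from 25.5 to 36.8 CPM with a median of 29.0, and in the libraries labelled LPAR2-/- from 21.8 to 30.8 CPM with a median of 25.6. The ranges overlapped, with 3 libraries labelled LPAR2-/- below the lowest WT mouse. The log2 fold change was -0.26 (SE 0.0927, 95% interval -0.46 to -0.07), and the adjusted p of 0.101 by edgeR missed the threshold. The exact permutation test gave p = 0.0280 (unadjusted, n = 7 each). Dusp4 was called in none of the 14 fits that left out a mouse, where the adjusted p ran from 0.05002 to 0.188.

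Dusp2, at chr2:127336159-127338377, encodes a nuclear phosphatase best known from lymphocytes. Its level was low in both genotypes, 11 to 27 counts per WT library and 15 to 26 per library labelled LPAR2-/-. The means were 0.941 ± 0.231 CPM and 1.01 ± 0.174 CPM (SD, n = 7 each). The log2 fold change of 0.10 had a 95% interval of -0.29 to 0.49 and an adjusted p of 0.798 by edgeR. With 1 mouse left out it ran from -0.0022 to 0.18, without a call.

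Of the cytoplasmic enzymes, Dusp6 (chr10:99263231-99267489), which is induced by ERK signalling and in turn inactivates ERK, stood at 39.6, 32.0, 24.6, 36.5, 31.4, 33.2 and 32.2 CPM in WT mice 1 to 7. In the libraries labelled LPAR2-/- it stood at 27.9, 27.9, 34.1, 23.6, 30.2, 19.6 and 20.7 CPM. The libraries labelled LPAR2-/- lay below the WT median in 6 of 7 mice, and that of mouse 3 lay above it. The log2 fold change was -0.32 (SE 0.123, 95% interval -0.58 to -0.05) with an adjusted p of 0.141 by edgeR, and the exact permutation test gave p = 0.0367 (unadjusted, n = 7 each). Dusp6 was called in none of the 14 fits that left out a mouse. There the log2 fold change ran from -0.39 to -0.26 and the adjusted p from 0.0534 to 0.232, with -0.39 and 0.0534 without LPAR2-/- mouse 3.

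Dusp7 (chr9:106368632-106375723), a cytoplasmic ERK phosphatase, had almost the same mean in both genotypes, 68.2 ± 3.80 CPM in WT and 68.1 ± 8.07 CPM in the libraries labelled LPAR2-/- (SD, n = 7 each). The 95% interval of its log2 fold change ran from -0.14 to 0.14 (adjusted p = 0.990 by edgeR). Dusp9 (chrX:73639441-73643514), best known from placenta, had few reads, with 4 to 13 counts per WT library and 3 to 24 per library labelled LPAR2-/-. Its log2 fold change of 0.48 had a wide 95% interval, -0.20 to 1.15 (adjusted p = 0.404 by edgeR). With 1 mouse left out it ran from 0.31 (without LPAR2-/- mouse 3) to 0.61 (without LPAR2-/- mouse 7), without a call. Over the other alternatives that tested it, it ran from 0.30 (limma-trend) to 0.50 (upper quartile scaling).

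Of the JNK and p38 enzymes, Dusp10 (chr1:184034461-184075636) stood at 2.93, 3.60, 2.59, 3.45, 2.59, 2.98 and 4.26 CPM in WT mice 1 to 7. In the libraries labelled LPAR2-/- it stood at 2.15, 2.41, 4.11, 2.37, 2.37, 2.15 and 2.24 CPM. Of the 7 libraries labelled LPAR2-/-, 6 lay below the lowest WT mouse, and that of mouse 3 lay above all WT mice but 1. With all mice the log2 fold change was -0.32 (SE 0.163, 95% interval -0.66 to 0.03, adjusted p = 0.262 by edgeR), and the exact permutation test gave p = 0.0530 (unadjusted, n = 7 each). Without LPAR2-/- mouse 3, the library with the highest oligodendrocyte markers, the log2 fold change was -0.48 and the adjusted p was 0.0335. The part of those markers in the Dusp10 value was not tested.

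Dusp8 (chr7:142079487-142095284), a phosphatase of JNK and p38 known for its high level in brain, had the tightest estimate. Its means were 177.8 ± 9.64 CPM in WT and 182.1 ± 14.5 CPM in the libraries labelled LPAR2-/- (SD, n = 7 each), with a log2 fold change of 0.03 (95% interval -0.07 to 0.14, adjusted p = 0.746 by edgeR). Dusp16 (chr6:134715468-134792628), a JNK phosphatase, had means of 11.4 ± 0.990 CPM and 10.9 ± 1.66 CPM and a log2 fold change of -0.06 (95% interval -0.25 to 0.14, adjusted p = 0.769 by edgeR). With 1 mouse left out the log2 fold change ran from 0.0049 to 0.065 for Dusp8 and from -0.109 to -0.0071 for Dusp16, without a call.

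Levels of different genes were compared per kilobase of counted exons. In WT mice Dusp8 was highest at 36.9 ± 2.00 CPM per kilobase, followed by Dusp7 (21.2 ± 1.183), Dusp4 (12.6 ± 1.85), Dusp6 (11.7 ± 1.67) and Dusp1 (6.55 ± 1.46), each with SD and n = 7. Dusp16 (2.23 ± 0.194), Dusp5 (2.23 ± 0.476), Dusp10 (1.1795 ± 0.223), Dusp2 (0.581 ± 0.143) and Dusp9 (0.171 ± 0.0576) made up the lower end. Neighbours in this order had separate ranges except for Dusp4 and Dusp6, where Dusp4 was higher in 4 of 7 WT mice, and Dusp16 and Dusp5, where Dusp16 was higher in 3 of 7. The order of the means was the same in the libraries labelled LPAR2-/-. There, Dusp4 and Dusp6 again overlapped, Dusp16 (2.14 ± 0.324) was above Dusp5 (1.05 ± 0.387) in 7 of 7 mice without overlap, and Dusp5 instead overlapped with Dusp10 (0.938 ± 0.258).

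**Figure D3:**
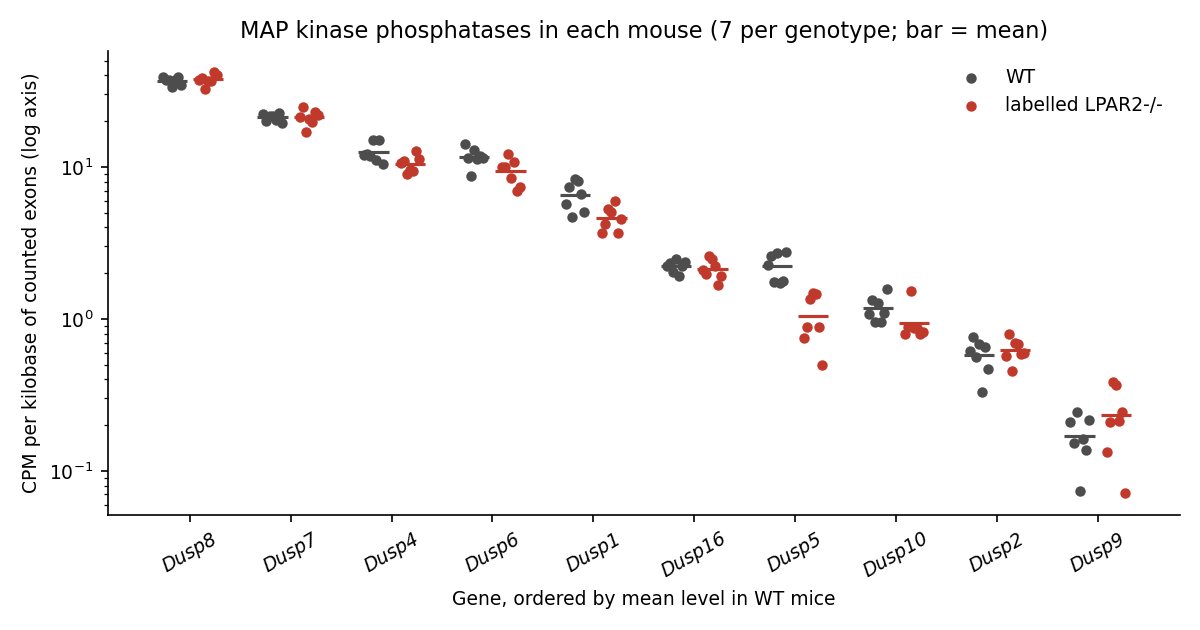
Level of each phosphatase in each mouse in CPM per kilobase of counted exons (y axis, log scale), with WT mice as dark points, mice labelled LPAR2-/- as red points and the mean of 7 as a bar, genes ordered by their WT mean. The means span from 36.9 for Dusp8 to 0.171 for Dusp9 in WT, and the points of Dusp5 do not overlap between the genotypes.

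The spread between libraries differed between members, and it holds counting error as well as differences between mice. The 2 were not separated (Dusp9 had 4 to 13 counts per WT library and Dusp8 2858 to 3960). The coefficient of variation of the CPM values in WT was lowest for Dusp8 (5.42%) and Dusp7 (5.58%), stood at 22.3% for Dusp1 and 21.3% for Dusp5, and was highest for Dusp9 (33.7%). In the libraries labelled LPAR2-/- it ran from 7.99% for Dusp8 to 49.3% for Dusp9, and that of Dusp5 was 37.0%. The library of LPAR2-/- mouse 3 was the highest with its label for Dusp6, Dusp9, Dusp10 and Dusp16 and the lowest for Dusp2, Dusp4, Dusp7 and Dusp8. Its oligodendrocyte marker level stands above, and its part in these values was not tested.

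Whether the phosphatases varied together between mice of 1 genotype was asked for all 45 pairs in each genotype, 90 tests in all, on log2 CPM with a prior count of 2. No Pearson correlation passed the adjusted threshold. Unadjusted exact permutation p-values lay below 0.05 for 5 pairs in WT and 12 in the libraries labelled LPAR2-/- (n = 7 each). The strongest was that of Dusp4 with Dusp16 in the libraries labelled LPAR2-/- (Pearson r = -0.97, exact permutation p = 0.000595, adjusted p = 0.0536, Spearman rho = -0.96, exact p = 0.0028, adjusted p = 0.0625, n = 7), with r = -0.91 without the 2 mice farthest from the median of Dusp4. In WT the same pair had r = 0.36 and rho = 0.36 (exact p = 0.428 and 0.444, adjusted p = 0.612 and 0.597, n = 7), and r = -0.04 without the 2 farthest mice. Dusp8 with Dusp16 had, in the libraries labelled LPAR2-/-, r = -0.93 (exact permutation p = 0.0038, adjusted p = 0.0848) and a rho of -1, whose adjusted p of 0.0357 passed, with r = -0.81 without the 2 mice farthest from the median of Dusp8. In WT it had r = -0.53 and rho = -0.68 (exact p = 0.210 and 0.110, adjusted p = 0.433 and 0.352, n = 7), and r = 0.39 without the 2 farthest mice. In the libraries labelled LPAR2-/- the summed dentate granule neuron markers put the mice in the same order as Dusp4, from 1463 CPM in mouse 6 to 932 CPM in mouse 3 (in WT they ran from 973 to 1378 CPM), and their part in these correlations was not tested. The called pair, Dusp1 and Dusp5, had r = 0.10 and rho = 0.04 in WT (exact p = 0.815 and 0.963, adjusted p = 0.929 and 0.963, n = 7). In the libraries labelled LPAR2-/- it had r = 0.66 and rho = 0.68 (exact p = 0.109 and 0.110, adjusted p = 0.345 and 0.352), and without the 2 mice farthest from the median of Dusp1 r was 0.17 in WT and 0.52 in the other genotype.

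The genes whose pattern over the 14 mice was most like that of each member were ranked by the Pearson correlation of log2 CPM after centring on the genotype means, among 14081 other genes (14082 for Dusp2 and Dusp9) with a mean of at least 1 CPM. This is a description over libraries that share depth and dissection. For Dusp1 they were Crkl (r = 0.88), Tsc22d3 (0.86) and Zglp1 (0.85), and for Dusp5 they were Vit (0.89), Gpr157 (0.89) and Dlec1 (0.87). None of these 6 was called between the genotypes. For Dusp10 they were Kcnma1 (0.95), Plekhh1 (0.93) and Opa1 (0.93), and of these Kcnma1, a potassium channel gene, was called lower (log2 fold change -0.25, adjusted p = 0.0044 by edgeR). For Dusp8 they were Colgalt1 (0.93), Snrnp70 (0.93) and Fam3c (0.92), and Colgalt1 was called higher (log2 fold change 0.41, adjusted p = 0.0026 by edgeR). The closest genes to 5 further members were Raly for Dusp2 (0.83), Cap2 for Dusp4 (0.91), Atp8a2 for Dusp6 (0.90), Pkig for Dusp7 (0.95) and 4931406P16Rik for Dusp16 (0.96). No member was among the 3 closest genes of another, which Dusp2 and Dusp9 could not be because their means lay below 1 CPM.

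Around the phosphatases, 99 other genes of the MAP kinase pathway were listed and 92 were tested. Of these 3 were called lower and 4 higher, which is 7 of 92 beside 6.77% of all genes, and their median log2 fold change was -0.01. The Sprouty and Spred genes, which inhibit signalling from receptors through Ras to ERK, had a negative fold change in 6 of 6 tested members (48.9% of all genes tested), of which Spry2 lay near 0 (-0.02) and turned positive with upper quartile scaling (0.0033) and in 5 of the 14 fits that left out a mouse (without LPAR2-/- mouse 1, 4, 6 or 7 or WT mouse 1, at most 0.06). Spred1 (log2 fold change -0.28, SE 0.0583, adjusted p = 0.0112) and Spry4 (-0.36, SE 0.0849, adjusted p = 0.0203) were called by edgeR, and the other 4 ran from -0.17 to -0.02 without a call.

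Among the MAP kinases, Mapk3, which encodes ERK1, was higher in the libraries labelled LPAR2-/- (240.9 ± 15.6 CPM in WT, 294.7 ± 26.3 CPM, SD, n = 7 each, log2 fold change 0.29, SE 0.0572, adjusted p = 0.0073 by edgeR). Mapk12, which encodes the p38 isoform gamma, was higher as well (5.81 ± 0.937 and 8.60 ± 1.12 CPM, log2 fold change 0.56, SE 0.112, adjusted p = 0.0078 by edgeR). Map2k7, a kinase that activates JNK (0.13, adjusted p = 0.0493), and Rasgrf2, an exchange factor of Ras (0.24, adjusted p = 0.0435), were called higher by edgeR, and Map3k1, an upstream kinase of the JNK branch, was called lower (-0.34, adjusted p = 0.0432). Spry4, Spred1, Mapk3 and Mapk12 were called with each mouse left out in turn, whereas Map3k1 was lost in 9, Rasgrf2 in 10 and Map2k7 in 13 of the 14 fits. The 7 other alternatives all called Spry4, Spred1, Mapk3 and Mapk12. Of these 7, 6 called Rasgrf2, 5 called Map3k1 and 4 called Map2k7. The replicate block lost Map3k1 and Map2k7, and upper quartile scaling lost Map3k1. None of the 13 atypical dual-specificity phosphatases tested and none of the 5 other phosphatases of MAP kinases tested was called.

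**Figure D4:**
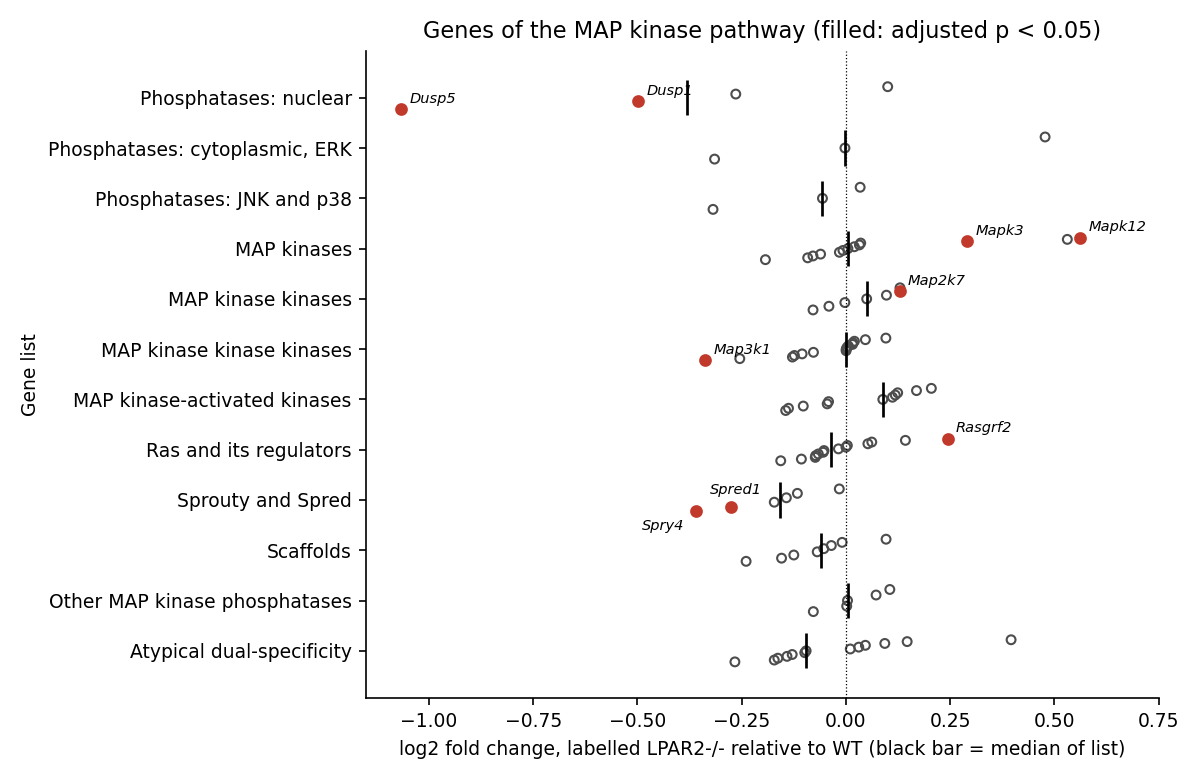
log2 fold change of each tested gene in libraries labelled LPAR2-/- relative to WT (x axis) for the 3 groups of MAP kinase phosphatases and 9 other lists of the pathway, with called genes filled and named and the median of each list as a black bar. The nuclear phosphatases have a median of -0.38, the Sprouty and Spred genes of -0.16, and the MAP kinases lie around 0 apart from Mapk3 (0.29), Mapk12 (0.56) and Mapk15, which was not called.

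A list of 26 immediate early genes, chosen with results of these libraries known and so no independent evidence of a direction, held 11 genes called lower and 0 called higher, beside 3.46% and 3.32% of all genes, and the median over the list was -0.39 on the log2 scale. Of the 26, 23 had a negative and 3 a positive log2 fold change, beside 48.9% of all genes tested with a negative one. The called immediate early genes ran from Egr2 (-2.50, adjusted p = 0.0044 by edgeR) to Klf10 (-0.42, adjusted p = 0.0203). Among these called genes, Dusp1 at -0.50 lay beside Sik1 (-0.49) at the small end and Dusp5 at -1.07 lay between Arc (-0.94) and Npas4 (-1.19).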

How the data were processed

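Total RNA was depleted of ribosomal RNA and sequenced on an Illumina HiSeq system. The authors trimmed reads with cutadapt 1.18, aligned them with STAR to mm10 and summed exonic reads of the reverse strand for each gene with featureCounts 1.6.3, omitting reads matching several genes or places. The deposited counts are raw whole numbers. A second, normalised table was not used. Groups came from the labels, which name no batch.

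Counts were filtered (filterByExpr), scaled by trimmed mean of M values and tested between genotypes over all 14 mice with edgeR 4.0.16 (robust quasi-likelihood F test, Benjamini-Hochberg correction over 14897 genes, two-sided, threshold 0.05) in R 4.3.3. The SE of a log2 fold change was its size divided by the square root of F. CPM used the scaled library sizes, and log2 CPM a prior count of 2. Single members were also tested by exact permutation. The scripts were tested on simulated data. Alternatives were DESeq2 1.42.0, limma 3.58.1, other scalings and filters, a replicate block and leaving out each mouse. The least different pair of libraries of 1 genotype differed beyond sampling noise (chi-square per degree of freedom 3.41), so each counted as 1 replicate.

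The members and the gene lists were chosen with earlier results of these data known. The genes named were the 10 members, the 3 genes most like each (all 3 are printed for 4 members, the closest for 5 others, and that of Dusp9 is not reported here), the called pathway genes (for the immediate early genes, examples) and Lpar2. Proteins were not printed.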

Additional observations from a re-analysis of the deposited data

Results flagged for a closer look

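Dusp10 in LPAR2-/- mouse 3 stood at 4.11 CPM, far from the other 6 libraries with that label, of which the next highest stood at 2.41 CPM. On log2 CPM, the gap between these mice divided by the range of the group was 0.827, above Dixon's critical value for 7 samples. Of 20 groups examined (10 members in 2 genotypes) this was the 1 past that value, and chance alone puts about 1 in 20 groups there. The same library held the highest summed level of oligodendrocyte markers (3878 CPM), and the part of these markers in the Dusp10 value was not tested.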

How the results depend on the processing

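No log2 fold change of a called phosphatase changed direction under any alternative. Of 2 phosphatases called, 1 remained with upper quartile scaling, no filter, at least 10 counts in every library, limma-trend, or a replicate block. That 1 was Dusp5, except with at least 10 counts in every library, where Dusp5 and Dusp9 were filtered out and Dusp1 remained. For Dusp1 the adjusted p ran from 0.0154 (DESeq2) to 0.0587 (no filter) over the 7 alternatives other than leaving out a mouse, and 3 of them called it. With the replicate block it was 0.05003, which missed the threshold. Dusp5 was called in all 6 that tested it (adjusted p 0.00018 to 0.0325). Leaving out 1 mouse gave 1 to 3 called phosphatases (3 without LPAR2-/- mouse 3, with Dusp10 added). Over all genes, 1009 were called, 1388 by DESeq2, 586 with the replicate block, and 567 to 1385 with 1 mouse left out (567 without WT mouse 2, 596 without WT 5, 611 without LPAR2-/- 1, 654 without WT 6, 669 without WT 4). Of the called genes 51.0% were lower, and 37.97% with upper quartile scaling, which moved the median over all genes to 0.023. Of the pathway genes, 7 were called, 11 by DESeq2, 6 with the replicate block or without a filter, 5 with limma-trend, and 4 to 10 with 1 mouse left out (4 without LPAR2-/- 1, 2 or 7 or WT 2, 3 or 4). The mouse numbers share no stated animal or batch, and 3 of 7 same-numbered pairs correlated above 0.1 (-0.33 to 0.31). Dusp2 and Dusp9 had at most 27 counts in any library and Dusp5 as few as 9. The cause of each of these shifts was not tested, apart from the genes lost to the filter.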
